A study of Mus musculus with 11 samples.

Results

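The 4 kidneys of lupus-prone NZW/BXSB mice were described on their own, as to which genes gave the strongest array signal and which varied most from kidney to kidney. They are 4 of the 11 samples of the series, taken by the strain in their titles, and the other 7 are kidneys of NZB/W mice. The NZW/BXSB kidneys were whole kidneys of F1 mice aged 8 weeks, prenephritic and without proteinuria. The NZB/W kidneys came from F1 mice aged 6 weeks, also prenephritic and without proteinuria. The study used male NZW/BXSB and female NZB/W mice. All mice were untreated, and the study perfused them with saline before harvest. The labels state neither sex nor batch, and name 1 kidney per mouse in each title. The label code of NZW/BXSB replicate 4 begins differently from those of the other 3, and the sources used here do not explain the codes.

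Male NZW/BXSB mice inherit the Yaa locus from BXSB, a translocated piece of the X chromosome that carries an extra copy of Tlr7, the sensor for single-stranded RNA, and they develop lupus nephritis early. A whole kidney is mostly tubule by mass. The proximal tubule reabsorbs filtered solutes and makes glucose, and it is rich in mitochondria, while the thick ascending limb secretes uromodulin. The adrenal gland and the fat around the hilum lie against the kidney, and the right kidney touches the liver.

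Expression was given as log2 values, so 1 unit is a 2-fold difference in signal. A gene was taken where the authors had called it above baseline in NZW/BXSB, which left 14191 of 16475 genes. With 4 kidneys and no groups among them nothing was tested, and all values below are descriptions. Medians of the 4 arrays lay between 8.09 and 8.17, and the interquartile range was 2.59 to 2.63 in replicates 1 to 3 and 2.44 in replicate 4. Pairs with replicate 4 differed by 0.187 to 0.231 (root mean square over genes), and the other pairs by 0.148 to 0.167. The difference between 3' and 5' probes of the Gapdh control, which grows with RNA degradation, was -0.16 in replicate 1 and -0.08 to -0.07 in the others. For the Actb control it was 0.87, 0.94, 0.87 and 0.77 in replicates 1 to 4. For the transferrin receptor control it was 1.56, 1.61, 1.51 and 1.63. These controls ordered the kidneys differently.

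Markers bore out kidney tissue and the male sex that the study states, but nothing here checks the strain. All 20 proximal tubule markers were above baseline, with a median level higher than 99.6% of the genes, and so were all 9 of the thick ascending limb, all 11 of podocytes and all 12 of endothelium. Xist, the RNA that silences an X chromosome in female cells, was not above baseline (4.80 to 4.91). Ddx3y, a Y-linked RNA helicase gene, gave 9.34, 9.45, 9.36 and 8.81 in replicates 1 to 4. Tlr7 gave 6.53, 6.36, 6.61 and 6.79, with an SD of 0.18.

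Genes of proximal tubule transport, energy metabolism and defence against peroxides gave the strongest signals. Kap (Entrez 16483), the androgen-regulated protein of the proximal tubule, was first with 14.89, 14.91, 14.91 and 14.89 in replicates 1 to 4. Gpx3 (14778), the plasma glutathione peroxidase that the proximal tubule secretes, came next with a mean of 14.73 ± 0.03 (SD, n = 4). Fth1, the ferritin heavy chain, was also near the top at 14.45 ± 0.02. The kidneys hardly differed in any of these. Signal depends on the probes of a gene as well as on its RNA, so these ranks order signals and not amounts of RNA. Whether values at the top of the range were compressed was not tested. Replicates 2 and 3 had the same highest value (14.91).

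The 30 strongest genes fell into a few roles. Transport and salt handling were represented by Slc27a2, a fatty acid transporter and acyl-CoA synthetase (14.34), by the phosphate cotransporter gene Slc34a1 (13.86) and by Fxyd2, a regulatory subunit of the sodium pump (13.84). Fuel and amino acid metabolism was represented by Miox, which opens the ring of inositol (14.20), by Fbp1 of gluconeogenesis (14.20), by the aldehyde reductase gene Akr1a1 (14.23), by the malate dehydrogenase gene Mdh1 (13.83) and by the acyl-CoA synthetase gene Acsm2 (14.32). The inner mitochondrial membrane contributed the ATP synthase genes Atp5b (14.33) and Atp5g3 (13.93), the adenine nucleotide carrier Slc25a5 (14.15) and the cytochrome c oxidase subunits Cox6a1 (14.07) and Cox6b1 (13.80). Selenium proteins were Gpx1 (14.22) and Selenop (14.26) beside Gpx3. Enzymes of steroids and foreign compounds were Cyp4b1 (14.33), Cyp2e1 (14.04), Ugt2b38 (14.04) and Akr1c21 (13.81). Umod, which encodes uromodulin, was the strongest gene of the thick ascending limb at 13.81 ± 0.05, and secreted proteins from the tubule further included the kallikrein gene Klk1 (13.85) and Dnase1 (13.85). Others of the 30 were the chaperone gene Hspa8 (14.22), the membrane protein gene Itm2b (13.92) and Keg1 (14.01), a gene named for its expression in kidney.

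Among the 100 genes of highest mean, which are 0.705% of the genes, stood 15 of 33 genes of the mitochondrial respiratory chain and 11 of 20 proximal tubule markers. They also held 5 of 16 antioxidant and glutathione genes, 5 of 13 genes that androgens drive in mouse kidney, 3 of 18 genes of gluconeogenesis and amino acid turnover, 2 of 9 thick ascending limb markers and 2 of 12 genes of a list made up mostly of ribosomal proteins. In all, 44 of the 100 belonged to at least 1 of the 43 lists. None of the podocyte or endothelial markers was among them, and the highest of the endothelium was Plvap (a protein of endothelial diaphragms, 10.91).

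The strongest signals had the lowest median SDs, and compression at that end of the range was not tested. The SD over the 4 kidneys had a median of 0.0984 over all genes, of 0.0540 in the 100 genes of highest mean and of 0.0404 in the first 50. With the genes cut into 10 classes by mean level, the median SD was 0.1122 in the weakest class and between 0.0863 and 0.0893 in the 4 strongest. Among the 100 strongest genes the highest SD was 0.2817. An SD above 0.5 was found in 43 genes, which is 0.303% of those above baseline, and an SD above 0.3 in 213, which is 1.5%. The border between the 50 most variable genes and the next ran from 0.4742 to 0.4728, so membership at that end is arbitrary.

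**Figure D1:**
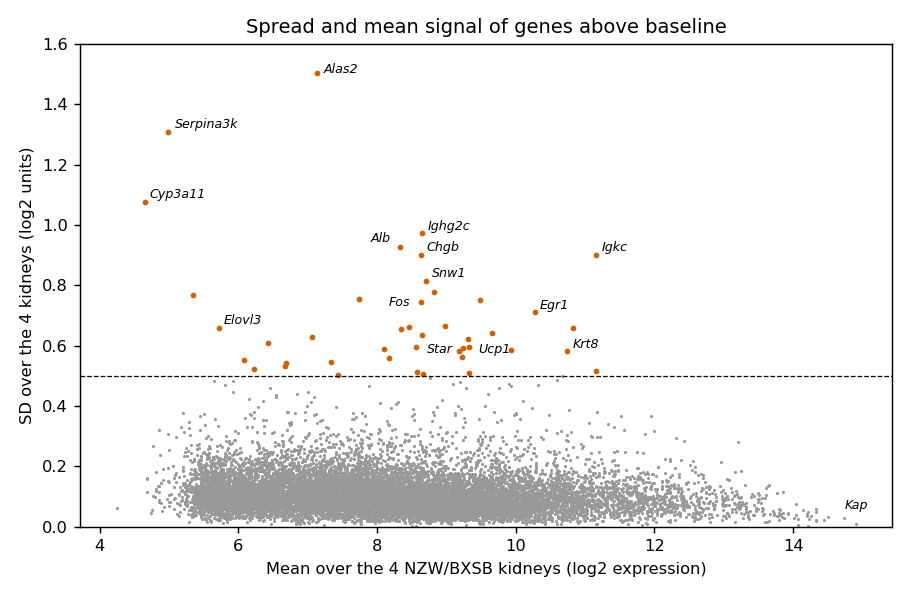
SD over the 4 NZW/BXSB kidneys (log2 units, vertical) against the mean (log2 expression, horizontal) for 14191 genes above baseline; 43 genes over the dashed line at 0.5 are orange. Alas2 lies highest with an SD of 1.50, and Kap lies at the right edge with 0.01.

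The genes with the highest SD were markers of tissues other than kidney tubule. First was Alas2 (Entrez 11656), the heme synthesis enzyme of red cell precursors, with an SD of 1.50. Behind it came the liver genes Serpina3k (20714, a serine protease inhibitor of plasma, 1.31) and Cyp3a11 (13112, a drug-metabolising cytochrome P450, 1.08), the immunoglobulin heavy chain gene Ighg2c (404711, 0.97), the albumin gene Alb (11657, 0.93), the kappa light chain gene Igkc (16071, 0.90) and Chgb (12653, chromogranin B of adrenal medulla granules, 0.90). Of the 50 genes with the highest SD, 19 (38%) belonged to 1 of 7 lists that were picked from the 43 for holding such genes and hold 0.564% of all genes, namely adrenal cortex, adrenal medulla, liver, fat, B and plasma cells, red blood cells and immediate early genes. In a whole kidney, more cells of a type and more RNA per cell cannot be told apart.

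Replicates 2 and 4 stood apart in most of these 50 genes. The kidney farthest from the mean of the other 3 was replicate 2 in 22 genes (10 high, 12 low), replicate 4 in 21 (10 high, 11 low), replicate 3 in 4, all low, and replicate 1 in 3. Over all 14191 genes replicate 4 was most often the one apart, low in 28.4% and high in 16.4%. As deposited, the lowest kidney was replicate 4 in 40.7% of genes and replicate 1 in 9.98%, and the highest was replicate 1 in 37.3% and replicate 3 in 13.6%. The shares of replicate 1 depended on the level of its array, since after median centring it was lowest in 26.5% and highest in 15.4%, and after quantile normalization in 22.5% and 22.4%. Replicate 4 stayed the most frequent lowest kidney, in 33.1% of genes after median centring and 32.6% after quantile normalization. The most variable genes therefore had replicate 2 apart more often than genes at large, where it was low in 14.9% and high in 5.79%. Replicate 4 was high in 20% and low in 22% of the 50 genes, near its 16.4% and 28.4% over all genes. Its count among the 50 is thus near its share at large. By differences of over 0.5 from the mean of the other 3, replicate 4 had 51 genes above (0.359%) and 133 below (0.937%) as deposited, 82 above and 104 below after median centring, and 62 above and 116 below after quantile normalization. For replicate 1 they numbered 44 above (0.31%) and 21 below (0.148%) as deposited, but 26 above and 33 below after median centring and 30 above and 27 below after quantile normalization. As deposited they numbered for replicate 2 49 (0.345%) and 53 (0.373%), and for replicate 3 12 (0.0846%) and 29 (0.204%).

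**Figure D2:**
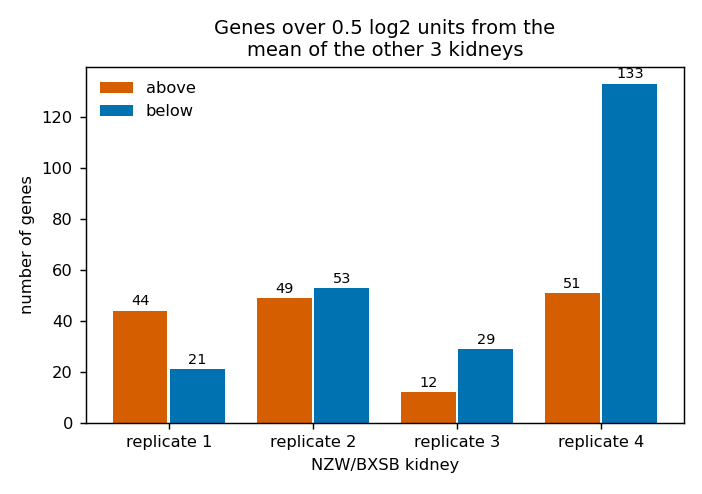
Number of genes in each NZW/BXSB kidney that lay over 0.5 log2 units above (orange) or below (blue) the mean of the other 3 kidneys, out of 14191, in the values as deposited. Replicate 4 has the tallest bar, 133 genes below, and replicate 3 the fewest in both directions together, 12 and 29.

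**Figure D3:**
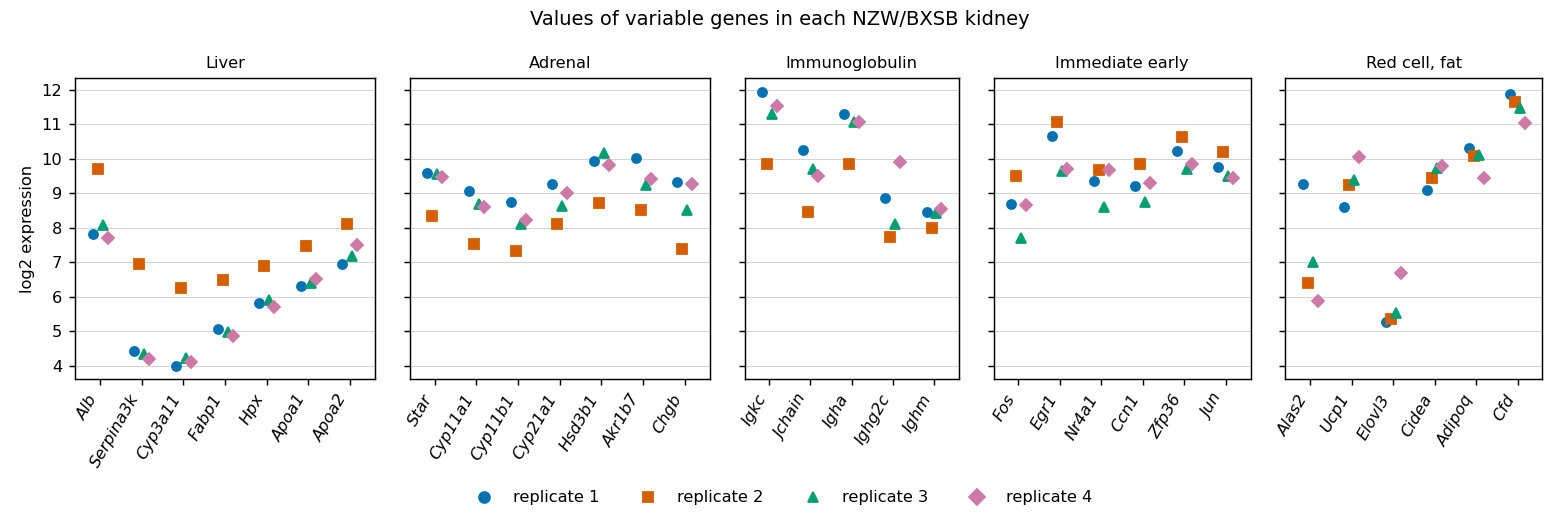
Log2 expression (vertical) of variable genes in each of the 4 NZW/BXSB kidneys, 1 symbol per kidney, in 5 groups by role. Replicate 2 (orange squares) lies highest in the liver genes and lowest in the adrenal genes, replicate 1 (blue circles) is highest for Alas2, and replicate 3 (green triangles) is lowest for Fos.

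The liver genes and the immediate early genes were looked at in their promoters. HNF1, a factor of liver and of proximal tubule, binds sites with the half-site GTTAAT, and CREB binds the half-site TGACG, through which cyclic AMP acts on immediate early genes. Windows of 250 bases before the start of each gene were read from RefSeq (GRCm38.p6) and searched on both strands. The 4 windows below, 2 of each set, are shown because they hold a match and belong to genes whose values are given next, and capitals mark the match on either strand.
Alb, chr5:90460620-90460869, plus strand: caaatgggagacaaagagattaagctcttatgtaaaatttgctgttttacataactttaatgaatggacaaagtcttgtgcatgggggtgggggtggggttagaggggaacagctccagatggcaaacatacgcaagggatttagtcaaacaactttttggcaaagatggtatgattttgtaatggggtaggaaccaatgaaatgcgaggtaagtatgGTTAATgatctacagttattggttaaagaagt
Fabp1, chr6:71199629-71199878, plus strand: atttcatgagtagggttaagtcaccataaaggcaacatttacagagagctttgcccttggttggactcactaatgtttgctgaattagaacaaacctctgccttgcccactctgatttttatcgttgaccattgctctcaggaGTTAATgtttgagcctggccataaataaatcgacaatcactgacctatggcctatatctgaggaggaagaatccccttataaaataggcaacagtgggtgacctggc
Fos, chr12:85473640-85473889, plus strand: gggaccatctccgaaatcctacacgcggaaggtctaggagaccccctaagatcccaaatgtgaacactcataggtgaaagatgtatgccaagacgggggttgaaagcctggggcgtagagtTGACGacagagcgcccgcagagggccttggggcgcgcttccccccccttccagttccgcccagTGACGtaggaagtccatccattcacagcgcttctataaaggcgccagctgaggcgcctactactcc
Nr4a1, chr15:101266596-101266845, plus strand: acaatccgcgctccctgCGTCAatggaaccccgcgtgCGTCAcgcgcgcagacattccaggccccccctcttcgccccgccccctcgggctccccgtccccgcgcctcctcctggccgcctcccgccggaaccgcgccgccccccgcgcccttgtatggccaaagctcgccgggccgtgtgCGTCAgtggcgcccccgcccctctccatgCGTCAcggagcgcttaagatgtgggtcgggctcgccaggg
The genes were chosen by their values, the liver genes for being high in replicate 2 and the others for an SD above 0.3. Of 9 such liver genes 8 had a window, and 3 of these (Alb, Fabp1 and Serpina1c) held GTTAAT, which 6.43% of all 32851 windows held. Of 6 such immediate early genes 5 had a window, and 3 (Fos, Nr4a1 and Ccn1) held TGACG, found in 17.8% of all windows. Fos held 2 matches and Nr4a1 4. TCAAGG is the core of the site of the steroidogenic factor SF-1. Of 7 such adrenal cortex genes 3 had a window, and 1 (Hsd3b1) held TCAAGG, found in 12.5% of all windows. A gene counted if any of its windows matched, so counts of genes and shares of windows are unlike measures. A match describes the letters of a window and is no evidence of binding.

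Most liver genes were high in replicate 2 alone. Alb, whose window is the first above, gave 7.82, 9.69, 8.08 and 7.70 in replicates 1 to 4, a 3.98-fold span. Serpina3k gave 4.43, 6.94, 4.34 and 4.203. Cyp3a11 gave 3.999, 6.25, 4.22 and 4.11. In these 3 genes replicate 2 was well clear of the others, which lay close together. For Serpina3k and Cyp3a11 the others lay near 4.25, the lowest mean of any gene above baseline, so no fold is given. Fabp1, the liver fatty acid binding protein, gave 5.07, 6.49, 4.97 and 4.86, Hpx, the heme carrier hemopexin, gave 5.81, 6.90, 5.91 and 5.70, and the apolipoprotein gene Apoa1 gave 6.31, 7.46, 6.39 and 6.52. Of the 9 genes in the first 50 that were high in replicate 2 and are no immediate early genes, all are genes with high expression in liver, the others being Serpina1c, Apoa2 and Mup3. By mean level Serpina3k, Cyp3a11, Fabp1 and Mup3 were in the weakest of the 10 classes by mean level.

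The liver list as a whole followed this pattern. Of its 10 genes above baseline 4 had an SD above 0.5 (0.303% of all genes) and 8 above 0.3 (1.5%). Their median SD was 0.44 against 0.0984 over all genes. Its mean was 8.76 in replicate 2 and 8.04 to 8.10 in the other kidneys, and 9 of the 10 were highest in replicate 2, against 20.4% of all genes. Without replicate 2 the range of the list mean was 0.0561, against 0.7245 with it. The exception was Serpina1a, an alpha-1-antitrypsin gene, which was highest in replicate 4 with 9.998 against 8.62 to 9.08. Serpina1a and Serpina1c are near-identical copies, so probes may not separate them. The transthyretin gene Ttr, which had the strongest signal of the list, gave 12.73, 12.92, 12.61 and 12.70. Fibrinogen was measured by Fga (9.32, 9.61, 9.22 and 8.81), Fgb and Fgg, and all 3 were highest in replicate 2 and lowest in replicate 4. Cyp7a1, the first enzyme of bile acid synthesis, was not above baseline.

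Genes of the adrenal cortex were low in the same kidney. Star (20845), which moves cholesterol into mitochondria, gave 9.58, 8.35, 9.55 and 9.46. Cyp11a1 (13070), which cuts the side chain of cholesterol, gave 9.06, 7.52, 8.69 and 8.59. Cyp11b1, which makes corticosterone, gave 8.74, 7.32, 8.11 and 8.23. In each of these steroid genes replicate 2 was below every other kidney, by more than those differed among themselves. Hsd3b1 gave 9.94, 8.72, 10.16 and 9.82, Akr1b7, a reductase of adrenal cortex, gave 10.04, 8.53, 9.24 and 9.43, and Mc2r, the receptor for ACTH, gave 6.78, 5.60, 6.03 and 6.50. Of 12 genes 11 were lowest in replicate 2, against 30% of all genes, and 10 were highest in replicate 1, against 37.3%. The exception was Fdx1, the ferredoxin that serves mitochondrial P450 enzymes, with 12.32, 12.30, 12.31 and 12.11. The list mean was 8.80, 7.89, 8.52 and 8.55, and 6 genes had an SD above 0.5 (0.303% of all genes) and 7 above 0.3 (1.5%).

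The adrenal medulla list had its lowest mean in the same kidney. Chgb gave 9.33, 7.40, 8.52 and 9.27, Th, the first enzyme of catecholamine synthesis, gave 7.13, 6.23, 6.60 and 6.83, and Pnmt, which makes adrenaline, gave 7.50, 6.80, 6.97 and 7.45. The mean of its 7 genes was 8.56, 7.96, 8.28 and 8.55. Ddc, which the proximal tubule expresses too (SD 0.18), and Slc18a1 (SD 0.04) did not follow. Without replicate 2 the range of the cortex mean was 0.2782 in place of 0.9042, and that of the medulla 0.2809 in place of 0.6057. Replicate 2 was thus the highest kidney by the liver list and the lowest by both adrenal lists. The part of adjacent tissue in these values was not tested.

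Several immunoglobulin genes were lowest in replicate 2. Igkc, the constant region of the kappa light chain, gave 11.94, 9.87, 11.29 and 11.53, a 4.2-fold span with replicate 2 lowest. Jchain, which joins polymeric IgA and IgM, gave 10.24, 8.45, 9.71 and 9.51, and Igha, the IgA heavy chain, gave 11.31, 9.85, 11.08 and 11.07. Replicate 2 was thus lowest by over 1 unit in all 3. Ighg2c, the heavy chain of an IgG subclass, gave 8.87, 7.72, 8.10 and 9.92, and Ighm of IgM spread less (8.44, 7.98, 8.43 and 8.55). Replicate 2 was the lowest kidney for these as well, and replicate 4 the highest. Ighg2b ran differently, with 7.14, 6.73, 7.59 and 6.72 and replicate 3 highest. Heavy chain constant regions share sequence, so the probes of a class may also see others. Surface and signalling genes of B cells varied little, with SDs of 0.14 for Ms4a1 (CD20) and 0.07 for Cd79b. Mzb1, a chaperone of plasma cells, gave 7.91, 7.74, 7.64 and 7.73. Of the 12 genes of the B and plasma cell list 2 had an SD above 0.3 (1.5% of all genes), Igkc and Jchain. Leaving out Igkc, Jchain and Ighm took the range of the list mean to 0.1838, from 0.4753 for the whole list, and without replicate 2 it was 0.2011.

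Alas2 was high in replicate 1, with 9.28 against 6.38, 7.001 and 5.86 in replicates 2, 3 and 4, a 10.6-fold span. Epb42, a membrane skeleton protein of red cells, did not follow, with 5.42, 5.39, 5.63 and 5.71, replicates 1 and 2 lying below replicates 3 and 4. Slc4a1 (SD 0.12), the anion exchanger of red cells, is also a gene of intercalated cells. The range of the list mean was 0.7309 with Alas2 and 0.1950 without it, and 0.2533 without replicate 1. The haemoglobin gene Hba-a1 was not measured in the values used.

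Immediate early genes, which growth factors and stress switch on within minutes, had their highest list mean in replicate 2 and their lowest in replicate 3. Fos (14281) gave 8.70, 9.51, 7.69 and 8.65, a 3.53-fold span. Egr1 (13653), a zinc finger factor, gave 10.68, 11.06, 9.64 and 9.71. Nr4a1, an orphan nuclear receptor, gave 9.37, 9.67, 8.60 and 9.69, with replicate 3 alone apart. The matricellular gene Ccn1 gave 9.22, 9.86, 8.74 and 9.30, Zfp36, which destabilises mRNA, gave 10.24, 10.64, 9.72 and 9.84, and Dusp1, a MAP kinase phosphatase, gave 11.45, 11.95, 11.49 and 11.41. Of the 23 genes 12 were highest in replicate 2 (20.4% of all genes) and 11 were lowest in replicate 3 (19.5% of all genes). An SD above 0.3 was found in 6 of the 23 (1.5% of all genes) and above 0.5 in 3 (0.303%). Without replicate 3 the range of the list mean was 0.1656, against 0.4006 with it. Egr2 (SD 0.07), Klf6 (SD 0.05) and Gadd45b (SD 0.06) varied less than the median gene. Clock genes varied about as much as genes at large, with a median SD of 0.096 over 20 genes against 0.0984. Per1, a repressor of the clock, was the one gene of them with an SD above 0.3 (8.35, 8.44, 9.08 and 8.63). The output gene Dbp, whose level follows the time of day, gave 10.47, 10.63, 10.48 and 10.24.

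The genes that set replicate 4 apart were of several kinds. Low there were Snw1 (66354), a splicing and transcription cofactor, with 7.54 against 9.21, 9.33 and 8.73 in replicates 1, 2 and 3, the zinc finger gene Zc3h6 with 5.51 against 6.64, 6.77 and 6.77, and Cirbp, the cold-inducible RNA binding protein, with 7.83 against 8.62, 9.01 and 8.81. Igfbp1, an insulin-regulated binding protein, gave 8.08 against 8.91, 9.63 and 9.28, and Ces1g, a carboxylesterase, 6.75 against 7.69, 8.57 and 7.95. In all of these replicate 4 was the lowest kidney.

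High in replicate 4 were Cyp4a14 (13119), a fatty acid hydroxylase and PPARα target, with 9.56 against 8.47, 8.51 and 8.07, Chil4 (104183), a chitinase-like protein, with 7.98 against 6.82, 6.87 and 6.56, and Elovl3 (12686), a fatty acid elongase of brown fat, with 6.69 against 5.27, 5.35 and 5.54. Ucp1 (22227), the uncoupling protein of brown fat, gave 8.61, 9.25, 9.39 and 10.06, highest in replicate 4 and lowest in replicate 1. Cidea, another gene of brown fat, ran the same way with 9.11, 9.46, 9.74 and 9.80. Genes that white fat makes in quantity did not. Adipoq (adiponectin) gave 10.32, 10.09, 10.12 and 9.46 and Cfd (adipsin) 11.90, 11.66, 11.47 and 11.03, both lowest in replicate 4. Carbonic anhydrase 3, Car3, abundant in fat and muscle, gave 9.92 in replicate 4 and 10.86 to 10.96 in the others. The mean of the 10 fat genes therefore moved by only 0.0855, with 4 genes above an SD of 0.3 (1.5% of all genes).

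Several leukocyte lists, those of macrophages and dendritic cells, neutrophils, T and NK cells, class II presentation and the interferon response, had their highest mean in replicate 4, by smaller amounts. The B and plasma cell list was highest in replicate 1 as deposited and in replicate 4 after median centring, and the class I list was highest in replicate 3 as deposited and in replicate 4 after quantile normalization. Of 15 genes of macrophages and dendritic cells 13 were highest there, against 28.8% of all genes, among them Adgre1 (F4/80; 7.07, 7.0, 7.23 and 7.73), the complement gene C1qa (8.73, 8.72, 8.94 and 9.35) and Fcer1g, an Fc receptor subunit (8.29, 8.37, 8.79 and 8.91). The list mean was 8.05, 8.00, 8.17 and 8.36. Of 8 neutrophil genes 7 were highest in replicate 4, with list means of 6.29, 6.18, 6.24 and 6.52. None of them had an SD above 0.3, a count near the share of 1.5% over all genes. Of 20 interferon response genes 11 were highest in replicate 4, clearly so Irf7 (7.77, 7.80, 7.77 and 8.20) and Xaf1 (7.32, 7.25, 7.27 and 7.68). Of 10 class II genes 4 were highest there, and of 14 genes of T and NK cells 10. After quantile normalization of the 4 arrays, 12 of the 15 macrophage genes, 7 of the 8 neutrophil genes, 7 of the 14 T and NK cell genes and 13 of the 20 interferon genes were highest in replicate 4, against 33.5% of all genes. Without replicate 4 the range of the list mean was 0.1689 in place of 0.3582 for macrophages and dendritic cells, 0.1067 in place of 0.3332 for neutrophils and 0.0686 in place of 0.1782 for interferon response genes.

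Androgen-driven genes had their lowest list mean in replicate 4 as deposited, after median centring and after quantile normalization. Cyp4a12a gave 12.57, 12.61, 12.52 and 12.003, the acyl-CoA synthetase gene Acsm3 13.29, 13.38, 13.35 and 12.78, and the organic anion transporter gene Slco1a1 11.31, 11.32, 11.36 and 10.84. Kap, which shares their hormone, had an SD of 0.01, but at the top of the range, where compression was not tested. As deposited, 12 of 13 were lowest in replicate 4, against 40.7% of all genes, but after quantile normalization 6 of 13 were, against 32.6%. The centred list mean there was -0.21 as deposited and -0.13 after quantile normalization, and without that kidney the range of the list mean was 0.0553 in place of 0.3054. Likewise 27 of 33 respiratory chain genes and all 12 genes of the ribosomal list were lowest in replicate 4 as deposited, and 5 and 7 of them after quantile normalization, so no direction is given for these. The Y-linked genes Ddx3y (8.81 against 9.34 to 9.45) and Eif2s3y (8.60 against 8.98 to 9.23) were lowest there as deposited and after quantile normalization. On both scales 4 of the 5 Y-linked genes above baseline were lowest in replicate 4, the exception as deposited being Zfy2, and Sry had an SD of 0.02.

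**Figure D4:**
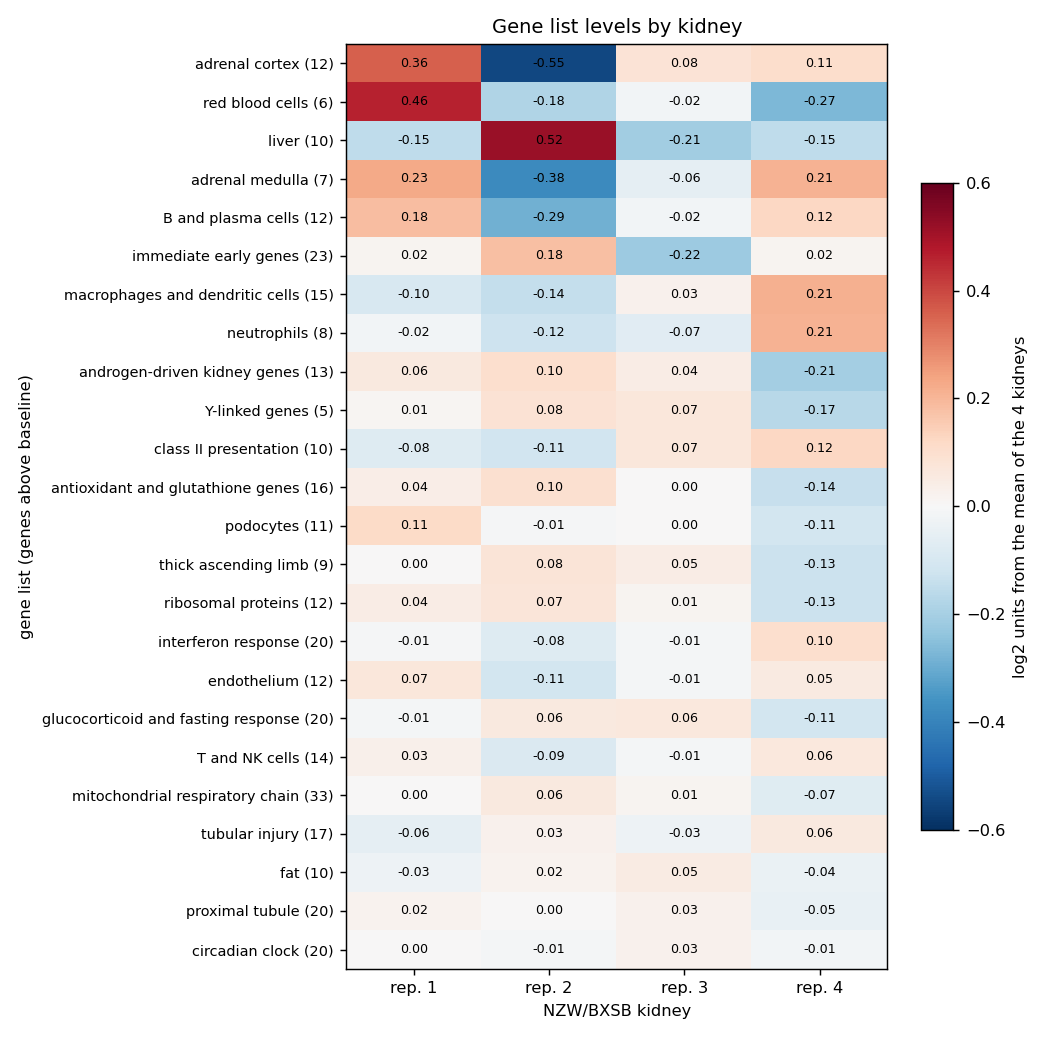
Mean of each of 24 gene lists in each NZW/BXSB kidney, as the distance in log2 units from the mean of the 4 kidneys (red above, blue below), with the number of genes above baseline in brackets and the lists sorted by range. Adrenal cortex runs between -0.55 in replicate 2 and 0.36 in replicate 1, liver reaches 0.52 in replicate 2, and proximal tubule stays within 0.05 of 0.

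A few variable genes belonged to none of these groups. Krt8 (16691), a keratin of simple epithelia, was low in replicate 1 with 9.88 against 11.14, 10.92 and 11.03, while its partner Krt18 had an SD of 0.09. Mfsd2a, a carrier of lysophospholipids, was high in replicates 1 and 3 (10.47 and 10.39) and low in replicates 2 and 4 (9.57 and 9.30). The amino acid transporter gene Slc7a12 gave 8.73, 9.05, 7.97 and 7.64, and Sh3bp2, an adaptor of immune cells, 8.89, 7.71, 8.35 and 7.75. Cxcr2, a chemokine receptor of neutrophils, was lowest in replicate 3 (7.14, 7.13, 6.02 and 6.47), unlike the neutrophil list.

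Markers of the cells of the kidney itself were not among the most variable genes. No marker of the proximal tubule (20 genes), thick ascending limb (9), distal convoluted tubule (6), principal cells (10), intercalated cells (9), podocytes (11) or endothelium (12) had an SD above 0.3, against 1.5% of all genes, so a count of 0 is near that share. Smaller shifts were seen. Of the 12 endothelial markers 9 were lowest in replicate 2 as deposited, after median centring and after quantile normalization, against 22.8% to 30% of all genes. Of the 11 podocyte markers 9 were highest in replicate 1 as deposited, but 4 after median centring and 5 after quantile normalization. Of the 7 genes of smooth muscle and renin cells 5 were highest in replicate 4 as deposited and 6 on the other scales, and the list mean had a range of 0.2633. The nephrin gene Nphs1 of the podocyte slit diaphragm gave 8.04, 7.86, 8.04 and 8.12. Among injury markers, Havcr1 (KIM-1) gave 9.99, 9.97, 9.59 and 9.89 and Lcn2 (NGAL) 8.03, 8.47, 8.24 and 7.84, with SDs of 0.19 and 0.27 that were above those of 90% of genes. Of 17 genes of tubular injury Krt8 alone had an SD above 0.3. Of 14 genes of T and NK cells, 10 of class II presentation, 9 of class I presentation and 20 of the interferon response none had one, a count again near the share of 1.5%. Cd74, the class II invariant chain, gave 11.27, 11.32, 11.64 and 11.66.

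The NZB/W kidneys, which the ranking did not use, give a measure of how far the same genes vary in another group. The median SD was 0.0984 over the 4 NZW/BXSB kidneys and 0.1234 over the 7 NZB/W kidneys, and an SD above 0.5 was found in 43 genes in NZW/BXSB (0.303%) and in 104 of the same 14191 genes in NZB/W (0.733%). Of the 43, 15 were also above 0.5 in NZB/W, which is 34.9% of the 43 and 14.4% of the 104. The 50 genes of highest SD had a median SD in NZB/W of 0.3465. Strain, sex and age went together in these samples and cannot be told apart, and the groups differ in size.

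Genes of different roles differed in this respect. Adrenal genes varied in both strains, Star with an SD of 0.59 in NZW/BXSB and 1.63 in NZB/W, Cyp11a1 with 0.66 and 1.82, and Chgb with 0.90 and 1.76. So did immediate early genes, Fos with 0.74 in NZW/BXSB and 1.44 in NZB/W and Egr1 with 0.71 and 1.33, and the immunoglobulin genes Igkc with 0.90 and 0.81 and Jchain with 0.75 and 0.76. Some liver genes had a high SD in NZW/BXSB and a low one in NZB/W. Examples are Serpina3k with 1.31 and 0.08, Cyp3a11 with 1.08 and 0.11, Alb with 0.93 and 0.13, and Apoa1 with 0.53 and 0.07. Others varied in both, Fga with 0.33 and 0.41 and Fgg with 0.41 and 0.44, and Apob (0.30 and 0.51) and Ttr (0.13 and 0.38) varied more in NZB/W. The median SD of the liver list was 0.44 in NZW/BXSB and 0.28 in NZB/W. Alas2 (1.50 in NZW/BXSB and 0.19 in NZB/W), Ighg2c (0.97 and 0.12) and Elovl3 (0.66 and 0.14) were of the same kind. Genes were kept by the NZW/BXSB call only, and several of these signals were weak in NZB/W. The highest NZB/W value was 4.33 for Serpina3k, 4.89 for Ighg2c, 5.28 for Cyp3a11, 5.69 for Apoa1 and 5.83 for Elovl3. In NZW/BXSB the weakest of the 10 classes by mean level reached up to 5.95. The highest NZB/W values of Alb (7.83) and Alas2 (6.92) lay above this level. Whether weak signal kept these SDs low was not tested. The reverse was seen for the 20 interferon response genes, with a median SD of 0.11 in NZW/BXSB and 0.57 in NZB/W, for example Ifit1 with 0.14 and 1.10. None of these differences in spread was tested.

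**Figure D5:**
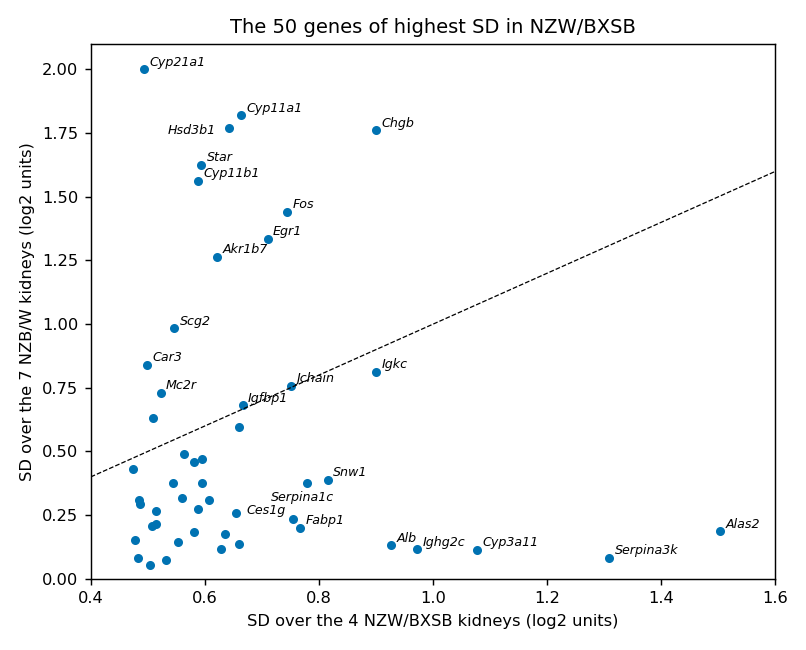
The 50 genes of highest SD in NZW/BXSB, with the SD over the 4 NZW/BXSB kidneys (horizontal) against the SD over the 7 NZB/W kidneys (vertical), both in log2 units; the dashed line marks equal SDs. Adrenal genes such as Cyp11a1 (0.66 and 1.82) lie above the line, and Alas2, Serpina3k, Cyp3a11, Ighg2c and Alb lie far below it. Of these, Serpina3k, Cyp3a11 and Ighg2c gave weak signals in NZB/W, at most 5.28.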

How the data were processed

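Total RNA of whole kidneys was labelled as biotinylated cRNA and hybridised to Affymetrix arrays. RMA, for which the submitters' notes give no version, summarised the probes of each Entrez gene, and the values the authors deposited are log2 signals. The methods describe joint normalization with batch correction. The genome build, and which samples set the baseline, are unknown. The authors also deposited a Yes or No call per gene and strain for expression above a baseline set on negative control probes.

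The values held 16539 rows, of which 16475 were Entrez genes and 64 control probe sets. RefSeq (GRCm38.p6) named 16229 genes, and 246 kept the deposited symbol. For the 14191 genes above baseline in NZW/BXSB, the mean, SD (n = 4) and range were computed in Python 3.11.15 (pandas 2.3.3), and quantile normalization in R 4.3.3 with limma 3.58.1. No test was run, and the number of arrays limits the precision. The ranking was checked on simulated data.

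Named genes are the 30 of highest mean, the 40 of highest SD, up to 5 members by SD and 3 by mean per described list, and 16 fixed genes. Other genes named, such as Cyp21a1, Fgg, Mup3, Mzb1, Ighg2b and Egr2, were chosen after their values were seen. Some genes that the rule names are not reported here. The members and the 43 gene lists were chosen with earlier results of these data known. Alternatives were median centring, quantile normalization, no filter, the 13138 genes called in both strains, an SD adjusted for intensity, the range, leaving out each kidney, and 4 added after the data were seen. The nephritic kidneys and the third strain were not analysed here.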

Additional observations from a re-analysis of the deposited data

Results flagged for a closer look

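In 21 of 230 results examined (206 genes and 24 list means, 9.13%) 1 kidney lay so far from the other 3 that its gap, as a share of the whole range, exceeded Dixon's 95% critical value. Over all genes this held for 6.02%, and chance gives about 1 in 20. Many of the genes examined were chosen for a high SD over these same kidneys, and 1 kidney apart raises the SD. The 9.13% therefore cannot be compared with these rates.

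Replicate 2 was the kidney apart in 8 of them. It was high for Serpina3k (6.94, others 4.203 to 4.43), Cyp3a11 (6.25, others 3.999 to 4.22), Fabp1 (6.49, others 4.86 to 5.07), Timd2 (8.66, others 8.11 to 8.15), Dusp1 (11.95, others 11.41 to 11.49) and the mean of the liver list (8.76, others 8.04 to 8.10). It was low for Star (8.35, others 9.46 to 9.58) and Igha (9.85, others 11.07 to 11.31).

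Replicate 4 was apart in 12. It was high for Irf7 (8.20, others 7.77 to 7.80) and Xaf1 (7.68, others 7.25 to 7.32). It was low for Zc3h6 (5.51, others 6.64 to 6.77), Ddx3y (8.81, others 9.34 to 9.45), Cyp4a12a (12.003, others 12.53 to 12.61), Acsm3 (12.78, others 13.29 to 13.38) and Slco1a1 (10.84, others 11.31 to 11.36). It was also low, by smaller amounts except for the glutathione transferase gene Gsta2 (11.08, others 11.69 to 11.74), for Ugt2b38 (13.93, others 14.07 to 14.09), the trypsin inhibitor gene Spink1 (13.46, others 13.64 to 13.65), the ribosomal protein gene Rps14 (12.43, others 12.63 to 12.67) and Fdx1 (12.11, others 12.30 to 12.32). Replicate 1 was apart for the resistin gene Retn (9.11, others 8.66 to 8.72).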

How the results depend on the processing

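No paired analysis was possible because the results come from no test and from 1 group. Under median centring, quantile normalization, no filter, only genes called in both strains, an SD adjusted for intensity and the range, between 44 and 48 of the 50 genes of highest SD were shared with those as deposited. Leaving out 1 kidney gave 28 to 45 shared genes, the fewest without replicate 2 (28) and replicate 4 (33). The 50 genes of highest mean shared 49 to 50. Genes with an SD above 0.5 numbered 43 as deposited, 30 to 58 with 1 kidney left out, and 213 at the limit of 0.3 chosen after the data were seen. The kidney apart was replicate 1 in 6 genes after median centring, in place of 3, and with another kidney left out in 6 to 14. The same ranges were 22 to 30 for replicate 2, 5 to 8 for replicate 3 and 20 to 28 for replicate 4.

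With 1 kidney left out, the range of the list means was 0.2011 to 0.4753 for B and plasma cells, 0.0744 to 0.1509 for T and NK cells, 0.0732 to 0.2498 for Y-linked genes, 0.2782 to 0.9042 for adrenal cortex, 0.2809 to 0.6057 for adrenal medulla, 0.0553 to 0.3054 for androgen-driven kidney genes, 0.0952 to 0.2358 for antioxidant and glutathione genes, 0.0157 to 0.0407 for circadian clock, 0.0795 to 0.1775 for endothelium, 0.0763 to 0.1755 for glucocorticoid and fasting response, 0.1656 to 0.4006 for immediate early genes, 0.0686 to 0.1782 for interferon response, 0.0561 to 0.7245 for liver, 0.1689 to 0.3582 for macrophages and dendritic cells, 0.0574 to 0.1322 for mitochondrial respiratory chain, 0.1067 to 0.3332 for neutrophils, 0.1093 to 0.2211 for podocytes, 0.0249 to 0.0718 for proximal tubule, 0.2533 to 0.7309 for red blood cells, 0.0574 to 0.2035 for ribosomal proteins and 0.0752 to 0.2076 for thick ascending limb. After quantile normalization it was 0.0761 for T and NK cells, 0.1153 for antioxidant genes, 0.0752 for circadian clock, 0.0246 for respiratory chain, 0.0899 for ribosomal proteins, 0.1150 for thick ascending limb and 0.1879 for tubular injury, and after median centring 0.1464 for fat, 0.0917 for circadian clock and 0.1986 for tubular injury. It was 1.2305 for red blood cells above baseline in both strains and 0.1950 without Alas2, and 0.1838 for B and plasma cells without Igkc, Jchain and Ighm. The Y-linked list had no gene above baseline in both strains. Of the SDs of named genes 8 moved by more than their own size with median centring and 4 with quantile normalization, all among the strongest signals.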
